A study of Homo sapiens with 27 samples.

Results

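ZEB1 (ENSG00000148516), the gene silenced here, was examined with its antisense gene ZEB1-AS1 (ENSG00000237036) and 8 protein-coding neighbours on chromosome 10, ZNF438, ARHGAP12, KIF5B, EPC1, MAP3K8, MTPAP, CCDC7 and JCAD. These 10 genes of the 57165 in the deposited table were chosen by position, within 1.5 Mb of the start of ZEB1, and not by how their RNA moved. Earlier results of these data were, however, known when they were chosen. The question was whether repression stayed at ZEB1 and ZEB1-AS1 or was also seen at the genes around them. The RNA-seq covered SUM159 and MDA-MB-231, human triple negative breast cancer (TNBC) cell lines described as claudin-low and mesenchymal, as 27 libraries in 9 groups of 3.

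In SUM159 the groups were untransduced wild type, No gRNA (cells carrying the lentiviral vector pLV-KRAB, which encodes dCas9-KRAB, with no guide RNA), gRNA 4 (the same vector with 1 guide to the ZEB1 promoter) and All gRNA (4 guides to that promoter, supplied together). MDA-MB-231 had wild type, No gRNA and 2 ZEB1-targeted groups whose labels conflict. In set 1 the titles name gRNA 4 and the data columns the pool, and in set 2 it is the reverse, so both are given here only as sets. All transduced cells, the No gRNA controls included, carried dCas9-KRAB and had been selected with puromycin, whereas wild type cells had neither. By the prefix of their data columns, the SUM159 groups form 1 batch. Those of MDA-MB-231 form another, beside 3 further SUM159 wild type libraries. Only the titles of these 3 libraries name a run, run 2, so the batches are called run 1 and run 2 here. What a run comprised is not stated in the labels. Replicates are labelled as biological and described by the study as individual clones, so the spread within a group is that between 3 clones or cultures of 1 line.

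ZEB1 is a zinc finger transcription factor that binds E-boxes in the promoters of epithelial genes and represses them, and it is a driver of epithelial-mesenchymal transition in breast carcinoma. dCas9-KRAB is a Cas9 that cannot cut DNA, joined to the KRAB repression domain. A guide RNA brings it to a promoter, where KRAB recruits KAP1 and, through it, enzymes that methylate histone H3 at lysine 9 and remove histone acetylation. This silent chromatin can extend away from the site of recruitment, and divergent or antisense transcripts that start beside a targeted promoter share its DNA.

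The canonical ZEB1 transcript starts at position 31319216 of chromosome 10 (GRCh38, plus strand), and the gene spans 31318495 to 31529814. ZEB1-AS1, a long noncoding RNA on the minus strand, spans 31206278 to 31320447 and so runs across the ZEB1 start. Of 12 annotated ZEB1-AS1 transcripts, 6 start within the 300 bases around the ZEB1 start, as do 7 of 23 ZEB1 transcripts. The 250 bases before the canonical ZEB1 start are shown (RefSeq, GRCh38.p14, plus strand, chr10:31318966-31319215). They belong to the proximal promoter, the region the guides were chosen for, and part of them also lies before a RefSeq start of ZEB1-AS1. The capitals mark the E-box CACCTG, which ZEB1 itself binds, read on either strand (CAGGTG is its reverse complement). The guides themselves were not placed on the genome here, and the study describes guides on both sides of the start.

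ZEB1 promoter: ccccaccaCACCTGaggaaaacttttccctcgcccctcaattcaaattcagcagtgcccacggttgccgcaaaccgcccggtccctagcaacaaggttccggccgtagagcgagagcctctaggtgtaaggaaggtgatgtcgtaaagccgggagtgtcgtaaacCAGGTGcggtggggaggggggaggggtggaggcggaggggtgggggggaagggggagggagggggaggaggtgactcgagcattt

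The E-boxes in this stretch begin 242 and 85 bases upstream of the start, and a further one begins 34 bases downstream of it. RefSeq places a ZEB1-AS1 start at 31319095, 121 bases upstream of the ZEB1 start, and 120 of the 250 bases before that antisense start are the same DNA as the stretch shown. Both ZEB1 and ZEB1-AS1 therefore hold CACCTG in their 300-base promoter windows (250 before to 50 after the start), and the matches of ZEB1-AS1 lie within the window of ZEB1. The ZEB1-AS1 window is that of this RefSeq start. The canonical ZEB1-AS1 start, at 31319691, lies on the other side, 0.475 kb downstream of the ZEB1 start. In the windows at the canonical starts of ZNF438, ARHGAP12, KIF5B, EPC1, MAP3K8, MTPAP and JCAD these letters occur 0 times. Among all 35116 RefSeq promoter windows 20.6% hold them. CCDC7 has no entry in that table.

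The neighbours lie on both sides. Upstream, by start site, are ZNF438 (287.4 kb away), MAP3K8 (885 kb), MTPAP (969.9 kb) and JCAD (1259.6 kb). Downstream are ARHGAP12 (609.6 kb), KIF5B (737.2 kb), EPC1 (1027.9 kb) and CCDC7 (1126.9 kb). Of 68 genes annotated within 1.5 Mb, 53 are in the table, 31 have any count and 14 passed the filter on low counts, all 10 members among them. LYZL2, the remaining protein-coding gene of the window, had 0 counts in every library. The nearest protein-coding genes beyond the window were ITGB1 and SVIL, whose starts lie 1.64 and 1.68 Mb away.

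Levels are given as CPM, the counts of a gene scaled to a common library size (TMM). Library totals were between 15461200 and 21473757 estimated counts. Per kb of canonical transcript, wild type SUM159 of run 1 expressed KIF5B at 81.8 CPM, ZEB1-AS1 at 25, ARHGAP12 at 19.4, ZEB1 at 13.4, MTPAP at 11.4, EPC1 at 7.23, ZNF438 at 5.36 and MAP3K8 at 3.61. The place of ZEB1-AS1 in this order rests on its short canonical transcript, 382 bases against 5937 for ZEB1. Before division by length it was at 9.53 CPM and ZEB1 at 79.6. JCAD (0.554 ± 0.0522 CPM per kb, SD, n = 3) and CCDC7 (0.525 ± 0.26) were lowest and did not differ beyond their spread. The mesenchymal markers VIM, CD44 and AXL were at 1315.6, 250 and 105.1 CPM or more in every library, whereas SPARC was at 67.9 CPM or more in SUM159 and at 4.61 or less in MDA-MB-231. CDH1 was at 1.02 CPM or less in every wild type and No gRNA library. The claudin-low description holds less well in MDA-MB-231, where wild type cells had CLDN4 at 66.2 CPM and KRT19 at 162.6. Defining markers of HEK293T packaging cells (NEFM, LIN28B) and of leukocytes (PTPRC) were at or below 0.294 CPM in all 27 libraries. The fibroblast markers COL1A1 and PDGFRB were not absent. Group means of COL1A1 ran from 5.34 CPM in MDA-MB-231 wild type to 257.8 in SUM159 wild type of run 2, and those of PDGFRB from 0.844 to 8.58. Whether this RNA comes from the lines themselves was not tested. In RNA from whole cultures, fewer cells expressing a gene and less RNA per cell cannot be told apart.

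**Figure D1:**
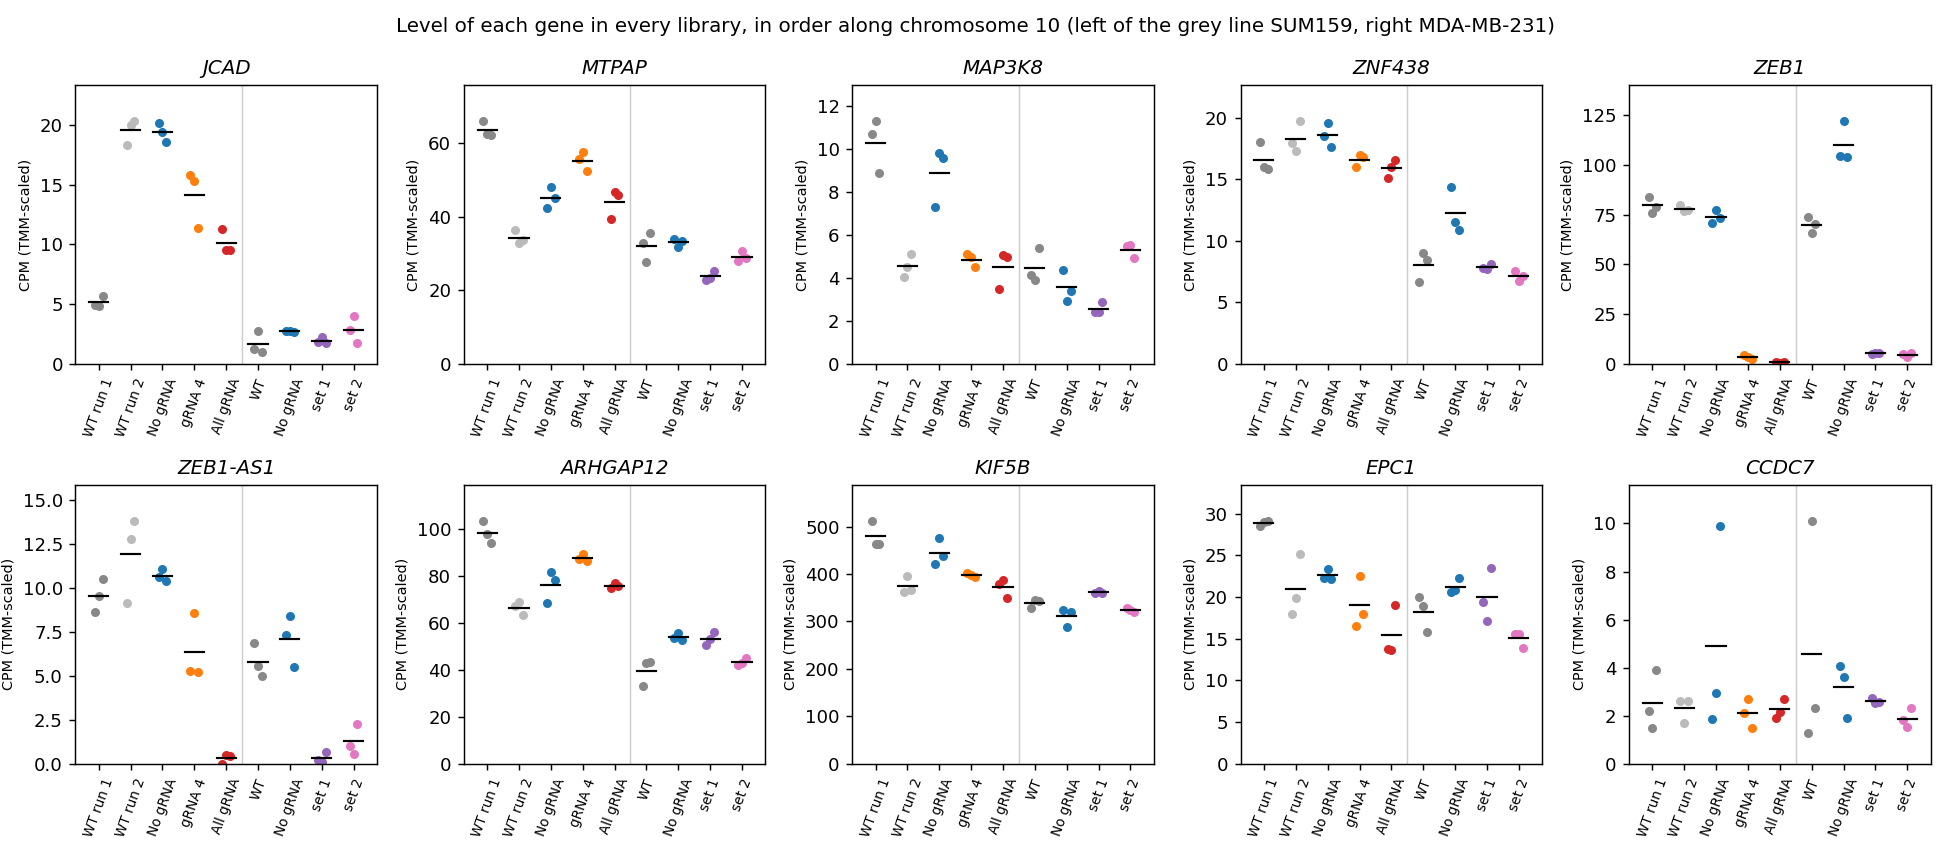
Level of each of the 10 genes (y axis, TMM-scaled CPM from 0) in every library (points) with the group mean (bar), in the order of their starts along chromosome 10. ZEB1 drops to 5.74 CPM or less in all 12 targeted libraries, ZEB1-AS1 drops in 3 of the 4 targeted groups to 2.28 CPM or less, and the neighbours stay within a narrower range.

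ZEB1 fell in every targeted group of both lines. In SUM159 it was at 84, 75.8 and 79 CPM in wild type cells, 79.7, 76.9 and 77.5 in wild type cells of run 2, and 70.7, 77.3 and 73.3 with No gRNA. With gRNA 4 it was at 4.56, 3.25 and 2.57 CPM, and with All gRNA at 0.811, 0.375 and 1.02. The 3 control groups lie close together, and each targeted library lies far below all of them. The log2 fold change against No gRNA was −6.70 (SE 0.327, 95% interval −7.41 to −5.98) with All gRNA, which leaves 0.962% of the control level, and −4.45 (SE 0.191, −4.87 to −4.03) with gRNA 4, which leaves 4.58%. The limma moderated test gave adjusted p = 1.87e-07 and 6.83e-08. The pool left less ZEB1 RNA than gRNA 4 did, by −2.25 on the log2 scale (95% interval −3.05 to −1.44, adjusted p = 0.0165), where 0.944% of all genes differed. These remaining levels rest on 6.67 to 19 estimated counts per library with All gRNA and on 43.5 to 79.4 with gRNA 4.

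In MDA-MB-231 ZEB1 was at 74, 65.5 and 70.4 CPM in wild type cells and at 104.4, 121.8 and 104.1 with No gRNA. It was at 4.75, 5.51 and 5.74 CPM in set 1 and at 4.93, 3.7 and 5.43 in set 2. Both sets lie far below both controls, but the controls themselves do not overlap, and ZEB1 was higher with No gRNA than in wild type cells by 0.60 on the log2 scale (95% interval 0.43 to 0.77, adjusted p = 5.16e-05). Against No gRNA the log2 fold change was −4.36 in set 1 (SE 0.165, adjusted p = 6.46e-09) and −4.54 in set 2 (SE 0.172, adjusted p = 2.39e-09). Against wild type the values were −3.76 and −3.94. The sets did not differ detectably from each other (0.18, 95% interval −0.32 to 0.68, adjusted p = 0.528), although 51.5% of all genes did.

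Wild type levels of ZEB1 were close in both lines within run 2, at −0.16 in MDA-MB-231 relative to SUM159 (95% interval −0.30 to −0.01, adjusted p = 0.0487; 75.5% of genes differed). Taking the mean of both targeted groups in each line, the fall was smaller in MDA-MB-231 than in SUM159 by 1.10 on the log2 scale (95% interval 0.61 to 1.59, limma moderated test, adjusted p = 0.00152). In this way 25.4% of genes differed between lines. Against No gRNA, ZEB1 with gRNA 4 in SUM159 (−4.45) lay between set 1 (−4.36) and set 2 (−4.54). Only All gRNA (−6.70) lay below both sets, so the difference of 1.10 rests on that group. Against wild type, gRNA 4 also lay below both sets. A line difference for gRNA 4 alone was not tested. TREAT, which asks whether a change exceeds 1 on the log2 scale, called the fall of ZEB1 in all 4 comparisons, with adjusted p from 8.17e-08 to 5.99e-06, and did not call the line difference (adjusted p = 1). An exact two-sided permutation test on 3 against 3 libraries cannot go below p = 0.1, and gave p = 0.1 for ZEB1 and for ZEB1-AS1 in each of these comparisons. ZEB2, the paralog of ZEB1, was not called in any of them (log2 fold changes −0.27 to 0.21).

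ZEB1-AS1 fell with All gRNA in SUM159 and in both MDA-MB-231 sets. In SUM159 it was at 8.61, 9.53 and 10.5 CPM in wild type cells, 9.16, 12.8 and 13.8 in wild type cells of run 2, and 10.6, 11.1 and 10.4 with No gRNA. With gRNA 4 it was at 5.27, 8.58 and 5.2 CPM, and with All gRNA at 0, 0.487 and 0.423. The All gRNA libraries are near 0, while those with gRNA 4 lie below every control library, narrowly so for replicate 2. The log2 fold change against No gRNA was −5.83 (SE 0.74, 95% interval −7.45 to −4.21, adjusted p = 0.000363) with All gRNA, and −0.80 (SE 0.27, −1.39 to −0.21, adjusted p = 0.0854) with gRNA 4, which did not pass the threshold. Without gRNA 4 replicate 2 that value was −1.03 and passed it. Without All gRNA replicate 1, the library at 0 counts, the value for the pool was −4.48, and without replicate 2 or 3 it was −6.54 or −6.47.

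The gap between the SUM159 targeted groups was wider at the antisense gene than at ZEB1. ZEB1-AS1 was lower with All gRNA than with gRNA 4 by −5.03 on the log2 scale (95% interval −6.67 to −3.39, adjusted p = 0.00963), and the interval does not overlap that of ZEB1 for the same comparison. The difference between the genes was not itself tested. With gRNA 4, where 4.58% of the ZEB1 RNA remained, 57.4% of the ZEB1-AS1 RNA did (95% interval 38.2 to 86.5%).

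In MDA-MB-231 ZEB1-AS1 was at 6.86, 5.56 and 5.01 CPM in wild type cells and at 7.33, 8.42 and 5.51 with No gRNA. It was at 0.214, 0.0892 and 0.659 CPM in set 1, which is 3.49, 1.5 and 10.3 estimated counts, and at 0.985, 0.577 and 2.28 CPM in set 2. Every targeted library is below every control library, and the sets overlap each other in 1 library. The log2 fold change was −4.71 in set 1 (SE 0.675, 95% interval −6.19 to −3.22, adjusted p = 0.000231) and −2.64 in set 2 (SE 0.425, −3.58 to −1.71, adjusted p = 0.000285). Set 1 was lower than set 2 by −2.06 (95% interval −3.73 to −0.40, adjusted p = 0.0394), although their ZEB1 levels did not differ detectably. The ZEB1-AS1 effect did not differ detectably between the lines (−0.38, 95% interval −1.65 to 0.88, adjusted p = 0.71).

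TREAT called ZEB1-AS1 with All gRNA (adjusted p = 0.00831), in set 1 (0.00816) and in set 2 (0.0339). That call was lost with All gRNA when only the 6 libraries compared were fitted (adjusted p = 0.0626), in set 1 without set 1 replicate 1 or 2 (adjusted p = 0.0655 and 0.0554), and in set 2 without replicate 1 or 2 of No gRNA or of set 2 (adjusted p from 0.0703 to 0.189) or against wild type (0.197), while the moderated call was kept in each. No gRNA and wild type cells did not differ detectably at ZEB1-AS1 in SUM159 (0.16, 95% interval −0.36 to 0.69) or MDA-MB-231 (0.23, −0.35 to 0.81). The genes overlap on opposite strands and the strand setting of the libraries and of the counting is not given in the sources used here. Reads from one could therefore have been assigned to the other, and the division of reads between them is uncertain.

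The ratio of ZEB1-AS1 to ZEB1, in CPM not scaled to transcript length, gives the same contrast within each library. On the log2 scale it was between −3.27 and −2.48 in the 9 SUM159 control libraries and at 0.21, 1.37 and 0.99 with gRNA 4. With All gRNA it was at −3.01, 0.30 and −1.08, a spread that comes with counts near 0 for both genes. In MDA-MB-231 it was between −4.21 and −3.41 in the 6 control libraries, at −3.89, −4.79 and −2.92 in set 1 and at −2.20, −2.47 and −1.21 in set 2. The 3 gRNA 4 libraries lie above every SUM159 control library, and set 2 lies above every MDA-MB-231 control library. The sign of the ratio depends on the scale, since per kb of canonical transcript ZEB1-AS1 already exceeded ZEB1 in SUM159 wild type cells (25 against 13.4 CPM per kb) and with No gRNA (28 against 12.4). That excess rests on the length of the canonical ZEB1-AS1 transcript, 382 bases against 5937 for ZEB1.

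**Figure D2:**
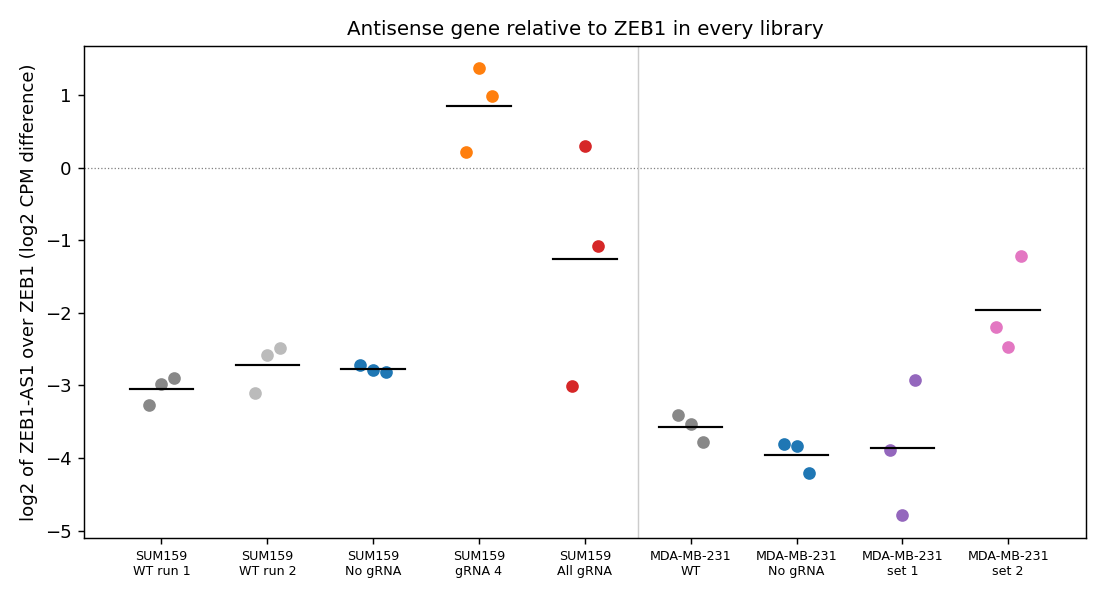
Log2 of ZEB1-AS1 over ZEB1 (y axis, difference of log2 CPM with a prior count of 2) in every library (points) with the group mean (bar). The gRNA 4 libraries, at 0.21 to 1.37, stand above the 9 SUM159 control libraries, and set 2, at −2.47 to −1.21, stands above the MDA-MB-231 controls.

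Around these genes, the estimated differences were smaller than 1 on the log2 scale at all 8 neighbours in all 4 comparisons, and TREAT called 0 neighbours in each. Some alternatives put a neighbour past 1, still with no call by TREAT at 1. With All gRNA, MAP3K8 reached −1.12 and JCAD −1.02 with 1 library left out, and CCDC7 was at −1.12 with edgeR and DESeq2. Counting ZEB1 and ZEB1-AS1, TREAT called 2 of the 10 genes lower with All gRNA (0.066% of all genes tested were called lower), 1 with gRNA 4 (0.0924%), 2 in set 1 (0.369%) and 2 in set 2 (2.4%). The limma moderated test against 0 called more. With All gRNA it called 4 of 8 neighbours, all lower, where it called 10.8% of all genes in either direction and 4.89% lower. With gRNA 4 it called 2 lower and 1 higher, where 11% of all genes were called, 4.91% lower and 6.11% higher. In set 1 it called 2 lower and 1 higher (37.8% of all genes, 17.3% lower and 20.4% higher), and in set 2 it called 3 lower and 1 higher (52.4%, 25.1% lower and 27.3% higher). The share of neighbours called, 37.5 to 50%, was above that of all genes in SUM159 and close to it in MDA-MB-231, but the SUM159 counts rest on few libraries. With gRNA 4, MAP3K8 was the 1 neighbour called (12.5%) when any No gRNA library or gRNA 4 replicate 3 was left out, where 7.45 to 8.17% of all genes were called, and likewise with only the 6 libraries fitted (8.57%) or without the filter on low counts (4.21%). With All gRNA, MAP3K8 and JCAD were the 2 called (25%) without No gRNA replicate 2 (6.74% of all genes) or with only the 6 libraries fitted (8.03%). With All gRNA 0 neighbours were called higher, where 5.93% of all genes were.

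The median log2 fold change of the 8 neighbours was −0.41 with All gRNA, −0.22 with gRNA 4, −0.34 in set 1 and −0.23 in set 2. That of all genes was between −0.01 and 0.00. In order, 7, 6, 7 and 5 of the 8 values were below 0. The comparisons in a line share their No gRNA libraries, so the pairs of values are not independent.

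**Figure D3:**
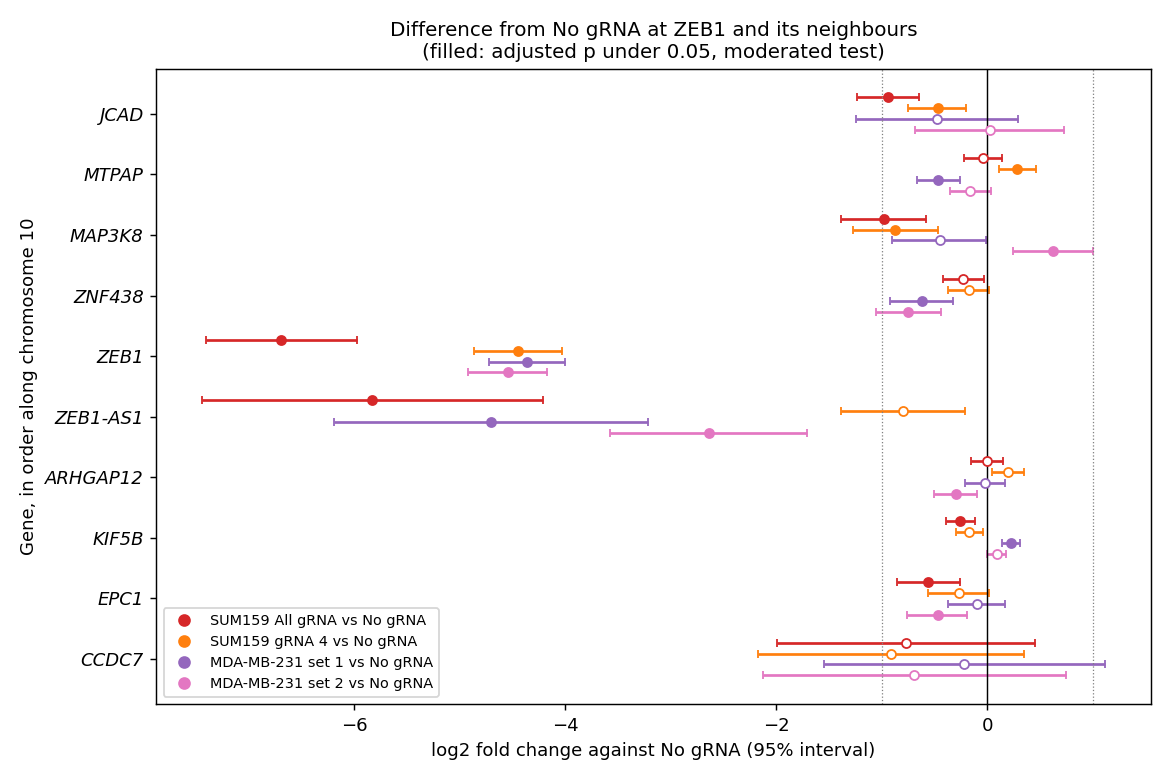
Log2 fold change against No gRNA (x axis, points, with 95% intervals) of the 10 genes in order along chromosome 10, in 4 comparisons (colors). Filled points passed the moderated test at an adjusted p under 0.05, and dotted lines mark 1 on either side of 0. ZEB1 lies at −4.36 or lower in all 4, ZEB1-AS1 between −5.83 and −0.80, and the neighbours between −0.98 and 0.62.

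Among the genes of transcription and chromatin, ZNF438, a zinc finger protein and the nearest protein-coding neighbour, differed in MDA-MB-231. It was at 6.66, 9.03 and 8.44 CPM in wild type cells, 14.4, 11.5 and 10.9 with No gRNA, 7.76, 7.74 and 8.15 in set 1 and 7.52, 6.75 and 7.12 in set 2. The No gRNA libraries stand alone, and both sets fall among the wild type libraries. On the log2 scale, set 1 was lower than No gRNA at ZNF438 by −0.62 (adjusted p = 0.00421) and set 2 by −0.75 (adjusted p = 0.000889), while No gRNA exceeded wild type by 0.55 (adjusted p = 0.00504). Against wild type the sets were at −0.07 and −0.20, and neither passed the threshold (adjusted p = 0.702 and 0.338). In SUM159 all 15 libraries lay between 15.1 and 19.7 CPM, and the log2 fold changes of −0.23 with All gRNA and −0.17 with gRNA 4 were not called (adjusted p = 0.137 and 0.259).

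EPC1, a subunit of the NuA4 histone acetyltransferase complex, was at 28.5, 29 and 29.1 CPM in SUM159 wild type cells, 17.9, 19.9 and 25.1 in wild type cells of run 2, and 22.3, 23.3 and 22.2 with No gRNA. It was at 16.5, 22.5 and 18 CPM with gRNA 4 and at 13.7, 13.6 and 19 with All gRNA. All gRNA is below No gRNA in every library but overlaps wild type of run 2. The log2 fold change was −0.56 with All gRNA (95% interval −0.86 to −0.26, adjusted p = 0.0211) and −0.27 with gRNA 4 (adjusted p = 0.231). In 5 of the 6 fits that left out a library of the comparison with All gRNA the call was lost, at −0.58 to −0.48 (all but that without All gRNA replicate 3). In MDA-MB-231 EPC1 was called lower in set 2 (−0.47, adjusted p = 0.00941; −0.30 and not called against wild type) and not in set 1 (−0.10, 95% interval −0.37 to 0.17).

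Of the signaling and cytoskeletal genes, MAP3K8, a serine/threonine kinase upstream of MEK and ERK, had the lowest log2 fold change of the neighbours. It was at 10.7, 11.3 and 8.88 CPM in SUM159 wild type cells, 7.29, 9.84 and 9.58 with No gRNA, 5.1, 4.97 and 4.5 with gRNA 4 and 3.48, 5.09 and 4.96 with All gRNA. Wild type cells of run 2 were at 4.05, 4.52 and 5.12 CPM. Both targeted groups lie below the controls of run 1 and overlap the wild type libraries of run 2. MAP3K8 fell by 0.98 on the log2 scale with All gRNA (95% interval −1.39 to −0.58, adjusted p = 0.00518) and by 0.87 with gRNA 4 (−1.27 to −0.47, adjusted p = 0.00965) against No gRNA. Wild type of run 2 was at −1.17 relative to wild type of run 1 (adjusted p = 0.000654), and against it, in a comparison added after the data were seen, the targeted groups were at −0.03 and 0.09 (adjusted p = 0.916 and 0.726).

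In MDA-MB-231 MAP3K8 was at 4.12, 3.93 and 5.38 CPM in wild type cells, 4.38, 2.95 and 3.38 with No gRNA, 2.41, 2.42 and 2.87 in set 1 and 5.5, 5.55 and 4.93 in set 2. The sets lie on opposite sides of No gRNA. The log2 fold change was −0.45 in set 1 (adjusted p = 0.1) and 0.62 in set 2 (adjusted p = 0.0105; 0.23 and not called against wild type), and set 1 was below set 2 by −1.07 (95% interval −1.49 to −0.65, adjusted p = 0.000627). Against wild type set 1 was called, at −0.84 (adjusted p = 0.00291). The effect differed between the lines by 0.98 (95% interval 0.50 to 1.47, adjusted p = 0.00324). That difference takes the mean of the 2 sets, which lay on opposite sides of No gRNA, so it describes neither set.

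KIF5B, the heavy chain of kinesin-1 and the most highly expressed of the 10 genes, was measured most precisely. With All gRNA in SUM159 it was at 379.5, 388.5 and 348.7 CPM, against 420.9, 477 and 437.4 with No gRNA, 363.2, 396.7 and 366.1 in wild type cells of run 2 and 463.7 to 511.8 in those of run 1. It fell by 0.26 on the log2 scale against No gRNA (95% interval −0.39 to −0.12, adjusted p = 0.0186), a call lost without No gRNA replicate 2 or All gRNA replicate 3 (−0.21 in each). In set 1 it rose by 0.23 against No gRNA (0.14 to 0.31, adjusted p = 0.000888). No gRNA was itself at −0.18 relative to wild type in MDA-MB-231 (adjusted p = 0.00224), and against wild type KIF5B was not called in set 1. Against No gRNA the value with gRNA 4 was −0.17 (adjusted p = 0.103) and that in set 2 was 0.09 (adjusted p = 0.0819).

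ARHGAP12 was at 0.00 with All gRNA (95% interval −0.15 to 0.15), 0.20 with gRNA 4 (0.05 to 0.35, adjusted p = 0.0902) and −0.02 in set 1 (−0.21 to 0.17). In set 2 it was called lower, at −0.30 (adjusted p = 0.0164), with libraries at 42.1, 42.7 and 45 CPM against 53.6, 55.7 and 52.8 with No gRNA and 32.9, 42.7 and 43.2 in wild type cells. Set 2 again falls among the wild type libraries or just above them. That call was lost without No gRNA replicate 2, set 2 replicate 1 or set 2 replicate 2 (−0.29 to −0.26).

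Of the remaining genes, JCAD, a protein of endothelial cell junctions, and MTPAP, the poly(A) polymerase of mitochondria, moved among the SUM159 controls as much as or more than in the targeted groups. JCAD was at 4.95, 4.82 and 5.72 CPM in wild type cells, 18.3, 20 and 20.3 in wild type cells of run 2, 20.2, 19.4 and 18.6 with No gRNA, 15.8, 15.3 and 11.4 with gRNA 4 and 11.3, 9.56 and 9.52 with All gRNA. The targeted libraries lie between the controls. Against No gRNA JCAD fell by 0.94 with All gRNA (95% interval −1.23 to −0.65, adjusted p = 0.00082) and by 0.47 with gRNA 4 (adjusted p = 0.0328). Against wild type of run 1 it was higher, by 0.96 and 1.43 (adjusted p = 0.000459 and 1.83e-05). Against wild type of run 2 the values were −0.95 and −0.48 (adjusted p = 2.01e-05 and 0.00853).

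No gRNA and wild type of run 2 each exceeded wild type of run 1 at JCAD, by 1.90 and 1.92, and TREAT called both (adjusted p = 0.00492 and 0.00224). The call with gRNA 4 was lost when any No gRNA library or gRNA 4 replicate 3 was left out (−0.50 to −0.32). In MDA-MB-231 JCAD lay between 1.03 and 4.03 CPM in all 12 libraries and was not called in set 1 (−0.48, 95% interval −1.24 to 0.29) or set 2 (0.03, −0.68 to 0.73).

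MTPAP was at 66, 62.6 and 62.3 CPM in SUM159 wild type cells, 36.5, 32.9 and 33.6 in those of run 2, 42.3, 48.2 and 45.1 with No gRNA, 55.8, 57.6 and 52.5 with gRNA 4 and 39.4, 46.7 and 46 with All gRNA. It rose by 0.28 with gRNA 4 (adjusted p = 0.0434), a call lost whichever of the 6 libraries was left out (0.24 to 0.33), and was at −0.04 with All gRNA (95% interval −0.22 to 0.14). In MDA-MB-231 it was at 22.9, 23.4 and 25.3 CPM in set 1, below the control range of 27.7 to 35.5. It fell by 0.47 in set 1 (adjusted p = 0.00215) and was at −0.16 in set 2 (adjusted p = 0.162).

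CCDC7, a coiled-coil protein, was too variable to place. Its 27 libraries lay between 1.29 and 10.1 CPM, with 1 No gRNA library of SUM159 at 9.89 and 1 wild type library of MDA-MB-231 at 10.1. The log2 fold changes were −0.77, −0.91, −0.22 and −0.69, in the order All gRNA, gRNA 4, set 1 and set 2. Without No gRNA replicate 3 of SUM159, the library at 9.89 CPM, the first pair of values was −0.07 and −0.20, and without replicate 1 it was −1.28 and −1.42. The widest of their 95% intervals ran from −2.13 to 0.75, so a fall of more than 1 could not be detected or dismissed.

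The controls also differed among themselves at the neighbours. No gRNA differed from wild type at 4 of the 8 neighbours in SUM159 and at 3 of 8 in MDA-MB-231, where 42.9% and 53.8% of all genes differed. Between run 2 and run 1 of SUM159 wild type cells 6 of the 8 neighbours differed (62.1% of all genes), by −1.17 at MAP3K8 to 1.92 at JCAD, while ZEB1 was at −0.03 (95% interval −0.16 to 0.11) and ZEB1-AS1 at 0.31 (−0.10 to 0.72). Run and culture cannot be told apart for these wild type libraries. The SUM159 targeted and No gRNA libraries are all of run 1, so a shift between runs does not enter their comparison. Within run 1, No gRNA relative to wild type was at −0.22 at MAP3K8 (adjusted p = 0.269) and at 1.90 at JCAD (adjusted p = 1.95e-06, both limma moderated test). The parts of run, culture and transduction in the neighbours' differences were not tested.

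**Figure D4:**
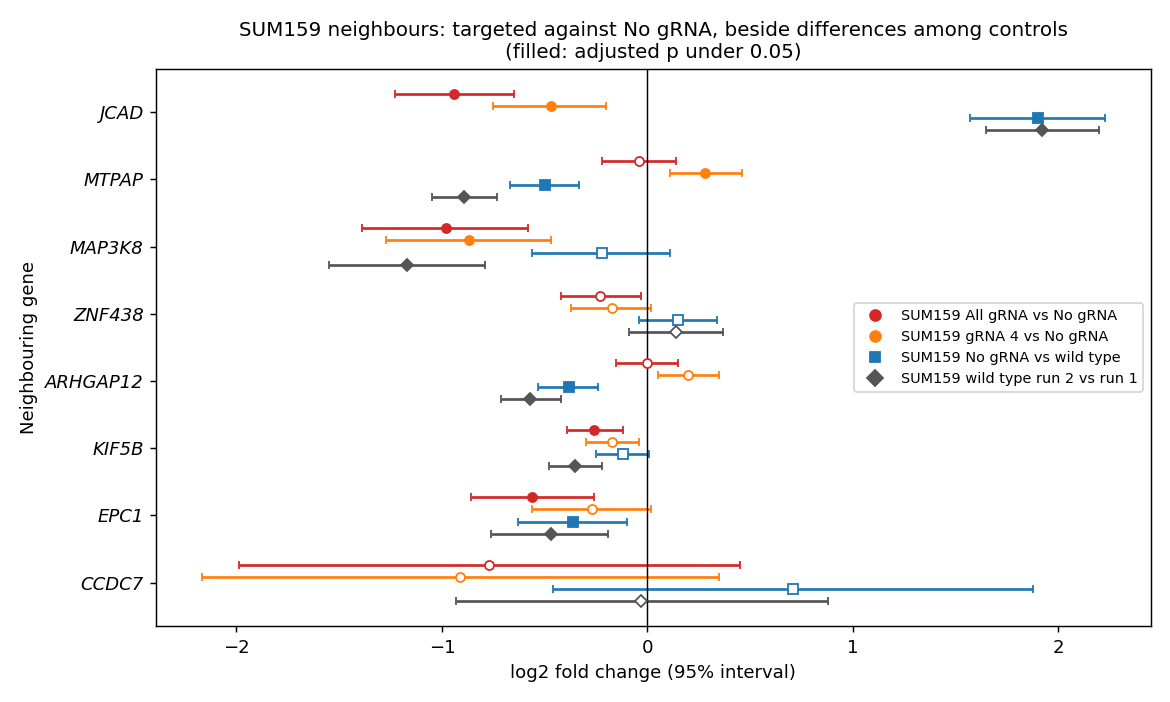
Log2 fold change (x axis, with 95% intervals) of the 8 neighbours in SUM159 for both targeted groups against No gRNA (circles), for No gRNA against wild type (squares) and for run 2 against run 1 of wild type cells (diamonds). Filled symbols passed an adjusted p under 0.05. Differences between runs of wild type cells reach 1.92 at JCAD and −1.17 at MAP3K8, beyond those of the targeted groups. Within run 1, No gRNA against wild type was at 1.90 at JCAD and −0.22 at MAP3K8.

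A stricter count, also added after the data were seen, takes only genes whose 3 targeted libraries all lie below every control library of the line, wild type of both runs included. With All gRNA and with gRNA 4 these were ZEB1 and ZEB1-AS1 and 0 of the 8 neighbours (4.52% and 4.15% of all genes tested lay below their 9 control libraries). In set 1 they were ZEB1, ZEB1-AS1, MTPAP and MAP3K8, and in set 2 ZEB1, ZEB1-AS1 and EPC1 (14% and 9.85% of all genes lay below their 6 control libraries). KIF5B in set 1, at 359.3 to 365.1 CPM, lay above all 6 control libraries, whose highest was 344.9. The SUM159 count mixes runs, since the targeted libraries are all of run 1. Against the controls of run 1 alone, All gRNA also lay wholly below at MAP3K8 (at most 5.09 CPM, against at least 7.29), EPC1 (19 against 22.2) and KIF5B (388.5 against 420.9). The gRNA 4 libraries did so at MAP3K8 and KIF5B. The share of all genes below the run 1 controls was not counted. Whether these neighbours are more than that share would give is therefore not known.

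Distance from ZEB1 did not order the neighbours in the same way in each comparison. With All gRNA, the calls were at JCAD, MAP3K8, KIF5B and EPC1, all over 0.5 Mb away, and ZNF438 was not called. In both MDA-MB-231 sets ZNF438 was called, as were genes further out. Within 1.5 Mb the 12 tested genes other than ZEB1 and ZEB1-AS1 had a median log2 fold change of −0.38 with All gRNA, −0.22 with gRNA 4, −0.16 in set 1 and −0.23 in set 2, and 33.3%, 25%, 25% and 33.3% of them were called. Between 1.5 and 5 Mb the medians were −0.09, −0.07, −0.04 and −0.20, over 25 genes in SUM159 and 27 in MDA-MB-231, and 20%, 20%, 33.3% and 48.1% of them were called. The share within 1.5 Mb was thus above that of the outer genes in SUM159 and below it in both MDA-MB-231 sets, differences that were not tested. SPTLC1P1, a pseudogene inside the ZEB1 gene body 41.7 kb from the start, was at −0.04, −0.00, 0.07 and 0.36 and was not called, with the limit that its reads may come from its parent gene.

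Over the 12 libraries of each line, the genes whose log2 CPM followed ZEB1 most closely were not neighbours. By the smaller of the Pearson correlations in the lines, out of 13668 genes tested in both, they were OLFML2A (0.93), SYT11 (0.91), ATOH8 (0.91), RGL1 (0.90) and TNFAIP2 (0.87), which lie on chromosomes 9, 1, 2, 1 and 14. ZEB1-AS1 ranked 21 (0.81) and ZNF438, the next of the members, 312 (0.57). In SUM159 the correlations of MAP3K8, KIF5B and EPC1 with ZEB1 were 0.92, 0.87 and 0.86, and in MDA-MB-231 they were 0.05, −0.48 and 0.46. MTPAP was at 0.39 in SUM159 and 0.72 in MDA-MB-231, and ARHGAP12, CCDC7 and JCAD were between −0.13 and 0.36 in both lines. These values are a description, since the libraries share lines, runs and controls.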

How the data were processed

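RNA-seq libraries (50 bp single-end reads) were quantified by the authors with Salmon against GRCh38 and summed to genes with tximport, and the deposited values are estimated counts corrected for transcript length, with no normalization between libraries. The annotation release, Salmon version and strandedness are not given in the sources used here. Groups came from the sample labels. Of 57165 gene identifiers, 56347 matched GENCODE release 44, which gave names and positions. The members and gene lists were chosen with earlier results of these data known.

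Each line was fitted with voom and limma 3.58.1 in R 4.3.3 over 12 libraries, with TMM scaling from edgeR 4.0.16 and filterByExpr at a minimum count of 10. The limma moderated test against 0 and TREAT at a log2 threshold of 1 used two-sided p-values with Benjamini-Hochberg adjustment over all genes tested, called under 0.05. The line difference was fitted over 24 libraries, and each comparison of 2 wild type groups over its own 6. No gRNA or targeted groups against wild type of the same run used the 12 libraries of the line. Targeted groups against wild type of run 2 were fitted over all 27 libraries. Alternatives included edgeR's quasi-likelihood test and DESeq2 1.42.0 on rounded counts. All 10 members were named whatever their values, with other tested genes within 1.5 Mb only if called, ZEB2, and the 5 genes most like ZEB1. SPTLC1P1 falls outside this rule and was chosen after its values were seen. The pipeline was tested on simulated data. gRNA sequences are not reported here.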

Additional observations from a re-analysis of the deposited data

Results flagged for a closer look

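At 6 of the 10 genes the effect of targeting ZEB1, taken as the mean of both targeted groups against No gRNA, differed between MDA-MB-231 and SUM159 in a test of the difference itself (limma moderated test, 24 libraries). The difference, MDA-MB-231 minus SUM159 on the log2 scale, was 1.10 for ZEB1 (adjusted p = 0.00152), 0.98 for MAP3K8 (0.00324) and 0.35 for KIF5B (0.000468). It was −0.51 for ZNF438 (0.00663), −0.28 for ARHGAP12 (0.0342) and −0.46 for MTPAP (0.00241). Of all genes tested, 25.4% differed in this way. The ZEB1 difference against No gRNA rests on All gRNA (−6.70), since gRNA 4 in SUM159 (−4.45) lay between set 1 (−4.36) and set 2 (−4.54). The MAP3K8 difference averages sets on opposite sides of No gRNA (−0.45 in set 1 and 0.62 in set 2). Line and run cannot be told apart for the transduced groups. With wild type in place of No gRNA, ZEB1 (1.88), MAP3K8 (0.88) and KIF5B (0.35) were still called in the same direction, ZNF438 (−0.05) was not, and ARHGAP12 (0.57) and MTPAP (0.11) changed sign. No gRNA itself differed from wild type at ARHGAP12 by −0.38 in SUM159 and 0.40 in MDA-MB-231.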

How the results depend on the processing

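ZEB1 kept its direction and its call in all 74 alternative values. ZEB1-AS1 kept its direction in all 74 and passed the moderated test in 4 more, all for gRNA 4 in SUM159: the 6 libraries alone (−0.80), DESeq2 (−0.76), wild type of run 2 (−0.93, added after seeing the data) and without replicate 2 (−1.03). Over all 10 members, 668 of 738 values kept direction and side of the threshold, 35 lost a call, 16 gained one and 19 changed sign.

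The number of members called by TREAT was 2, 1, 2 and 2 (All gRNA, gRNA 4, set 1, set 2). It was 6, 4, 5 and 6 with the moderated test against 0 and with edgeR's quasi-likelihood test, and 6, 6, 5 and 6 with DESeq2, both of which also test against 0. It was 4 with All gRNA by TREAT at the log2 of 1.2 (ZEB1, ZEB1-AS1, JCAD and MAP3K8). It was 1 with All gRNA and with set 2 when only the 6 libraries compared were fitted, and 1 with set 2 without the filter on low counts and against wild type. Leaving out 1 library gave 1 to 2 in set 1 (1 without set 1 replicate 1 or 2) and 1 to 2 in set 2 (1 without replicate 1 or 2 of No gRNA or of set 2), and ZEB1-AS1 is the gene that lost its call. The moderated count with gRNA 4 went from 4 to 2 without the filter and to 7 against wild type, and was 2 to 4 with 1 library left out (2 without any No gRNA library or gRNA 4 replicate 3). In set 2 it went from 6 to 2 against wild type. The cause was not tested.

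Same-numbered replicates did not deviate together (r between −0.04 and 0.05), so they share only a number. With the replicate number as a block, TREAT called 1 member in set 2 in place of 2, and 2, 1 and 2 elsewhere, and the moderated test called 6, 3, 5 and 6.

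Sign changes were at neighbours. Against wild type of the same run they were at JCAD (0.96 with All gRNA, 1.43 with gRNA 4, 0.30 in set 1), ARHGAP12 (−0.18 with gRNA 4, 0.38 in set 1, 0.10 in set 2), MTPAP (−0.22 with gRNA 4), EPC1 (0.08 in set 1) and KIF5B (−0.09 in set 2). Against wild type of run 2 they were at MTPAP (0.36 with All gRNA), KIF5B (0.08) and MAP3K8 (0.09, both with gRNA 4). JCAD in set 2 was at −0.07 with upper quartile scaling and −0.03 with library totals. With 1 library left out the values that crossed 0 ranged from −0.08 to 0.04 (MTPAP, All gRNA), from −0.06 to 0.01 (ARHGAP12, set 1), from −0.22 to 0.01 (EPC1, set 1) and from −0.26 to 0.33 (JCAD, set 2). Line differences changed sign against wild type at ARHGAP12 (0.57), MTPAP (0.11), CCDC7 (−0.39) and JCAD (−0.60). With library totals ZEB1 in MDA-MB-231 wild type was at 74.6 CPM in place of 70. Measuring distance from the gene body start left the medians within 1.5 Mb at the same values.

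Counts limit the remaining levels of ZEB1-AS1 with All gRNA (0 to 8.66 estimated counts) and in set 1 (1.5 to 10.3), and the levels of CCDC7 and JCAD in MDA-MB-231.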
